A study of Mus musculus with 2 samples.

Results

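The Notch pathway genes described here are the 4 receptors Notch1, Notch2, Notch3 and Notch4, the ligands Jag1, Jag2, Dll1 and Dll4, and the transcriptional targets Hes1 and Hey1. They were picked by symbol, and all 10 were found among the 23930 amplicon targets of the series. The data are 2 bulk RNA libraries of cranial suture tissue (coronal, sagittal and lambdoid) from wildtype mouse pups at postnatal day 3, called library 1 and library 2 after the number in their titles. Both libraries carry batch number 1 and form 1 group with no treatment, so no condition could be compared. The labels name the cell type as suture stem cells, but the extraction protocol describes whole tissue and mentions no sort. No label tells whether different pups were used for each library, which leaves a technical source of their spread possible. All 8 markers of suture mesenchyme that were looked up, led by Postn, reached 1 CPM in both libraries, beside 55.0% of all targets. Here CPM is the number of reads of a target scaled to a fixed library total. All 8 skeletal muscle and all 8 chondrocyte markers reached this level too, so the count does not single out suture tissue.

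Notch receptors are single-pass membrane proteins that are bound by Jagged or Delta-like ligands on a neighbouring cell. Binding lets ADAM proteases and then gamma-secretase cut the receptor, and the freed intracellular domain enters the nucleus, joins the DNA-binding protein Rbpj and switches on genes of the Hes and Hey families, which are repressors. In the mouse, Jag1 acts in the mesenchyme at the coronal suture boundary, and Notch signalling is known to restrain osteoblast differentiation and to shape blood vessels. In humans, mutations of NOTCH2 that stabilise the receptor cause a skeletal disorder with bone loss.

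All 10 genes were expressed, and the receptors Notch2 and Notch3 gave the most reads. Each of the 10 genes was above 10 CPM in both libraries, a level that 34.6% of all targets reached, and above 1 CPM, which 55.0% reached. The median of their mean levels was 39.7 CPM, against 3.29 CPM over all targets and 36.5 CPM over the 9192 targets with a mean of 10 CPM or above. Every gene is read through 1 amplicon of the panel, so reads do not grow with gene length, but amplicons differ in efficiency and the order of different genes is an order of panel reads. Library 1 held 5663344 reads and library 2 held 15802610, so the 95% counting intervals are narrower in library 2.

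**Figure D1:**
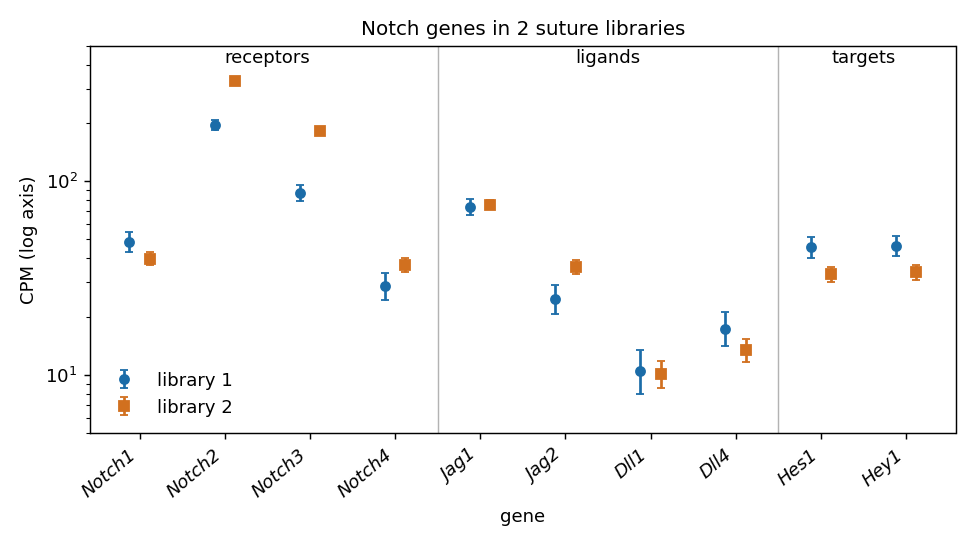
CPM of each Notch gene (log axis) in library 1 (circles) and library 2 (squares), with exact 95% Poisson intervals of the reads. Notch2 is highest in both libraries, at 195 and 329 CPM, and Dll1 lowest, at 10.4 and 10.1 CPM.

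Among the receptors, Notch2, which is widely expressed and acts in bone-forming and bone-resorbing cells, was read at 195 CPM in library 1 and 329 CPM in library 2, or 262 CPM ± 94.7 (SD, n = 2). It ranked 685 and 314 among all targets. Notch3, the receptor typical of pericytes and vascular smooth muscle, was at 87.1 and 181 CPM, or 134 CPM ± 66.8 (SD, n = 2). Both were thus higher in library 2, with counting intervals that did not overlap. Notch1, the receptor best known from blood and vessel development, was at 48.7 and 39.8 CPM, or 44.3 CPM ± 6.31 (SD, n = 2), and was the receptor with its higher value in library 1. Notch4, known mainly from endothelial cells, was the lowest receptor at 28.6 and 36.8 CPM, or 32.7 CPM ± 5.77 (SD, n = 2). The receptors kept the order Notch2, Notch3, Notch1 and Notch4 in both libraries, although the counting intervals of Notch1 and Notch4 overlapped in library 2. In the GENCODE annotation of mm10, Notch1 lies on chromosome 2 from 26457903 to 26516663, Notch2 on chromosome 3 from 98013527 to 98150361, Notch3 on chromosome 17 from 32120820 to 32166852 and Notch4 on chromosome 17 from 34564268 to 34588503. Where the amplicons sit in these genes is not stated in the labels. Annotated exons of Notch1, Notch3, Dll1 and Dll4 overlap exons of noncoding genes on the opposite strand, and the labels do not say whether counting used strand, so reads of such partners could not be told apart. Exons of Notch2 overlap an annotated transcript of uncertain status on its own strand.

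The start regions of the receptor genes are shown because these genes differ widely in level and in promoter composition. Each line gives 250 bases before and 50 after the RefSeq start (build GRCm38.p6), read 5′ to 3′ on the gene's strand, with CpG pairs in capitals.
Notch2 chr3:98013288-98013587, plus strand: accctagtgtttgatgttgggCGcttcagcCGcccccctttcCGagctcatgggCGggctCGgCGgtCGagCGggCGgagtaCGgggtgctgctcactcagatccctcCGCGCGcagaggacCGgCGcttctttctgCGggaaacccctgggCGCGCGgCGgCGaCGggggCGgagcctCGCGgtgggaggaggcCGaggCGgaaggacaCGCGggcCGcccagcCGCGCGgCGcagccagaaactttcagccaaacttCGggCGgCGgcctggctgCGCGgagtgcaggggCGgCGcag
Notch3 chr17:32166841-32167140, minus strand: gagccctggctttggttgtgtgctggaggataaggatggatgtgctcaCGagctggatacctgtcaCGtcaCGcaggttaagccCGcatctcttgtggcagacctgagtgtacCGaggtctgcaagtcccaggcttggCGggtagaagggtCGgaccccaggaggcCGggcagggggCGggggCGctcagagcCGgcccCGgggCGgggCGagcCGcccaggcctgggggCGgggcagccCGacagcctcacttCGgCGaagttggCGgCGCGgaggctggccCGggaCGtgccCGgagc
Notch1 chr2:26503773-26504072, minus strand: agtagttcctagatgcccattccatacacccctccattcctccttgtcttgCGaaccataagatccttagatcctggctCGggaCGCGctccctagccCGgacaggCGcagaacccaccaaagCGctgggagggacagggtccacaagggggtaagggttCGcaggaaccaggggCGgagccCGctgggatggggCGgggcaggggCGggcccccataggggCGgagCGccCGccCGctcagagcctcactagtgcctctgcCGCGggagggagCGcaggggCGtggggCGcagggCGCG
Notch4 chr17:34564045-34564344, plus strand: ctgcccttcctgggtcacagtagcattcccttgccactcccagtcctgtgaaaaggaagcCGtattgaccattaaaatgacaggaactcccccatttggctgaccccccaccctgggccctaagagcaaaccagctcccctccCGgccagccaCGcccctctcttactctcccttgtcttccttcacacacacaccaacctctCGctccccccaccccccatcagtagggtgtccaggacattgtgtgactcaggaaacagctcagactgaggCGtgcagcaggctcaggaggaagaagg

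These windows hold 41 CpG pairs for Notch2, 25 for Notch3, 23 for Notch1 and 5 for Notch4, which is also the order of their levels. Over all 32851 promoter windows of this length the median was 7, so the window of Notch4 lies below the median and the other receptors above it. This order is a description of 4 genes and did not extend to the ligands. The window of Jag2 holds 63 CpG pairs, and that of Jag1, which gave more reads, holds 22. RefSeq windows were matched for 8 of the 10 genes, among them 2 starts of Dll1, and were not matched for Hes1 and Hey1. The core letters of the Rbpj binding motif, TGGGAA on either strand, were found in 0 of these 9 windows and in 25.6% of all windows. The 9 windows had a median of 63.7% GC against 52.7% over all windows, so the shares are not like for like. Whether the motif is depleted was not tested. The longer form GTGGGAA, which contains the core, was found in 6.38% of all windows.

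Of the ligands, Jag1 gave the most reads, and it and Dll1 differed least between the libraries. Jag1 was read at 73.6 CPM in library 1 and 75.7 CPM in library 2, or 74.7 CPM ± 1.45 (SD, n = 2). Jag2, a ligand known from epithelia and limb development, was at 24.5 and 35.9 CPM, or 30.2 CPM ± 8.06 (SD, n = 2). Dll4, the ligand of arterial and sprouting endothelial cells, was at 17.3 and 13.4 CPM, or 15.3 CPM ± 2.79 (SD, n = 2). Dll1, a ligand of somite, neural and muscle development, was at 10.4 and 10.1 CPM, or 10.2 CPM ± 0.252 (SD, n = 2), from 59 and 159 reads. Jag2 was therefore higher in library 2 and Dll4 in library 1, while the values of Jag1 and Dll1 nearly coincided. Jag1 lies on mm10 chromosome 2 from 137081456 to 137116644, Jag2 on chromosome 12 from 112907819 to 112929776, Dll1 on chromosome 17 from 15367354 to 15376872 and Dll4 on chromosome 2 from 119325784 to 119335962. Dll3, a divergent ligand that does not activate Notch on neighbouring cells, gave 0.883 and 0.316 CPM and did not reach 1 CPM in either library.

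Hes1 and Hey1, which code for basic helix-loop-helix repressors, were read at almost the same level. Hes1 was at 45.6 CPM in library 1 and 33.0 CPM in library 2, or 39.3 CPM ± 8.90 (SD, n = 2). Hey1 was at 46.4 and 33.9 CPM, or 40.1 CPM ± 8.90 (SD, n = 2). Both were higher in library 1, and the ratio of Hes1 to Hey1 was 0.981 in library 1 and 0.974 in library 2. Hes1 lies on mm10 chromosome 16 from 30064384 to 30067796 and Hey1 on chromosome 3 from 8663359 to 8667256.

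Ordered by mean level, the genes ran Notch2, Notch3, Jag1, Notch1, Hey1, Hes1, Notch4, Jag2, Dll4 and Dll1, a span of 25.6-fold. Of the 9 neighbouring pairs in this order, 4 had values that overlapped between the libraries: Notch1 and Hey1, Hey1 and Hes1, Hes1 and Notch4, and Notch4 and Jag2. Within each of these pairs the difference was not beyond the spread between the libraries, although the values of Notch1 stayed above those of Notch4 and Jag2. Compared within each library, Notch1 was ahead of Hey1 in both (ratios 1.05 and 1.18). The same held for Hey1 over Hes1 (1.02 and 1.03) and Notch4 over Jag2 (1.17 and 1.02). In library 2 the counting interval of Notch1 (36.8 to 43.0 CPM) overlapped those of Notch4 (33.8 to 39.9) and Jag2 (33.0 to 39.0). Hes1 and Notch4 had no fixed order, with Hes1 ahead in library 1 and Notch4 in library 2. The ranges of the other 5 pairs did not overlap, among them Notch3 and Jag1, whose ratio was 1.18 in library 1 and 2.40 in library 2.

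Shares within a library do not depend on how the libraries are scaled to each other, but differences in amplicon efficiency stay in them. Notch2 took 54.3% of the reads of the 4 receptors in library 1 (exact 95% binomial interval 52.1 to 56.4) and 56.0% in library 2 (55.0 to 57.1). Notch3 took 24.2% (22.4 to 26.1) in library 1 and 30.9% (30.0 to 31.9) in library 2. Notch1 took 13.6% (12.1 to 15.1) in library 1 and 6.78% (6.28 to 7.31) in library 2. Notch4 took 7.96% and 6.26%. The share of Notch2 was thus close in both libraries, while that of Notch3 was 6.69 percentage points higher and that of Notch1 6.78 points lower in library 2. Of the reads of the 4 ligands, Jag1 took 58.5% (54.8 to 62.1) in library 1 and 56.0% (53.9 to 58.2) in library 2. Jag2 took 19.5% and 26.6%, Dll4 13.7% and 9.89%, and Dll1 8.27% and 7.45%. Jagged ligands together made up 78.0% of these reads in library 1 and 82.7% in library 2. The receptors summed to 359 and 587 CPM and the ligands to 126 and 135 CPM, so receptor reads outnumbered ligand reads 2.85 to 1 in library 1 and 4.35 to 1 in library 2.

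**Figure D2:**
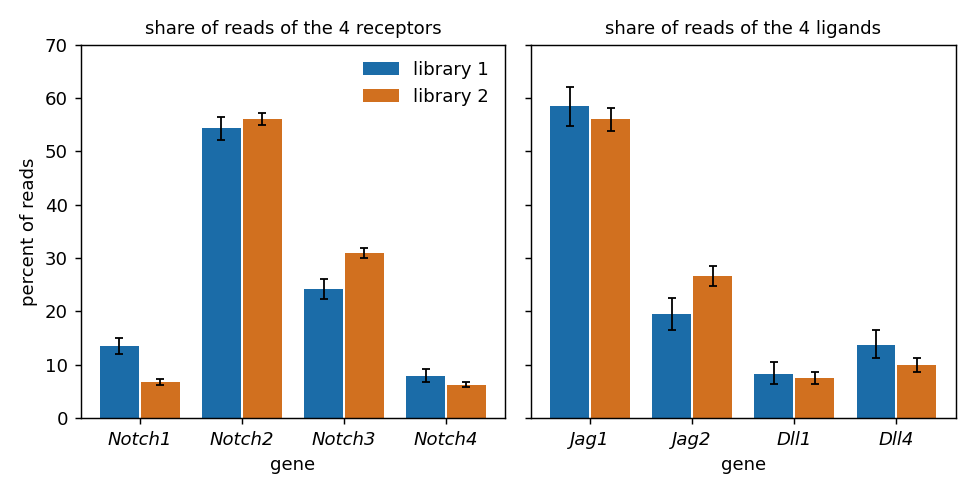
Percent of the reads of the 4 receptors (left) and of the 4 ligands (right) taken by each gene in library 1 and library 2, as bars from 0 with exact 95% binomial intervals, which cover counting error only. Notch2 and Jag1 hold over 50% of their sets in both libraries, and the bars of Notch1 stand at 13.6% and 6.78%.

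The libraries were then compared gene by gene, as replicates of 1 group, with the difference taken as log2(CPM + 1) of library 1 minus library 2. One gene, Notch3, passed 2-fold, at -1.05 on this scale. That is 1 of 10 genes, beside 18.7% of all targets with a mean of 1 CPM or above and 15.2% of those with 10 CPM or above (7.89% in the direction of library 2), so this count does not set the genes apart. At 1.5-fold, 2 of 10 genes passed, beside 38.6% of the targets with 10 CPM or above. Its reads were 2.08-fold more frequent in library 2, with a counting interval from 1.89 to 2.30 that includes 2-fold. Notch2 followed at -0.75, then Jag2 at -0.53 and Notch4 at -0.35. On the other side stood Hes1 at 0.45, Hey1 at 0.44, Dll4 at 0.35 and Notch1 at 0.29, whereas Dll1 (0.05) and Jag1 (-0.04) were close to 0. The higher value lay in library 1 for 5 genes and in library 2 for 5. The median size of the difference, without sign, was 0.40 for the Notch genes and 0.45 for all targets with a mean of 10 CPM or above.

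**Figure D3:**
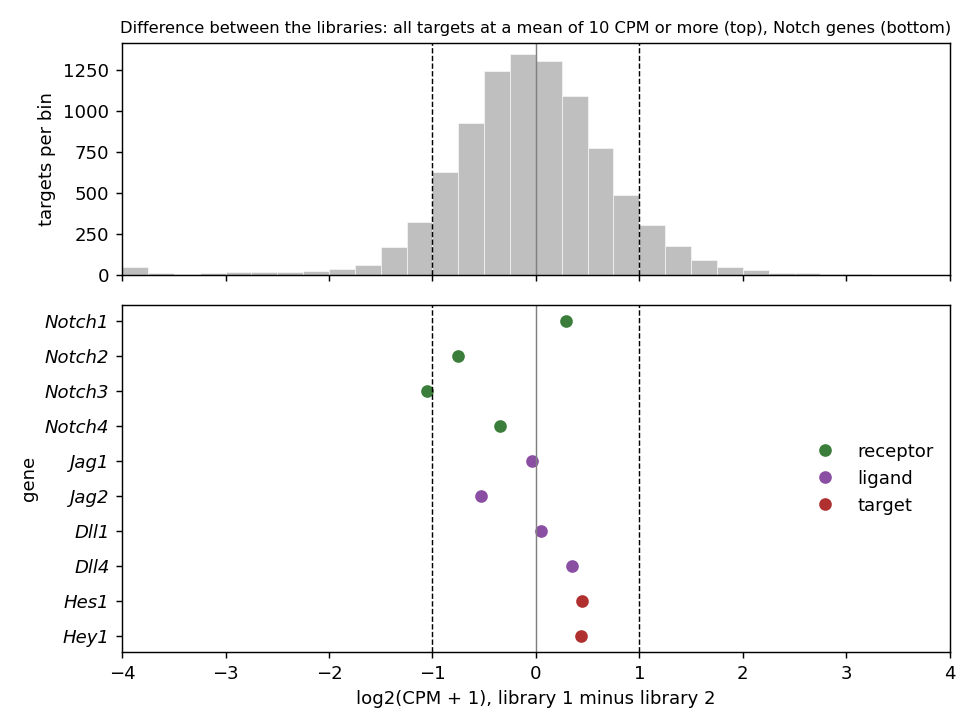
Difference between the libraries on the log2(CPM + 1) scale, library 1 minus library 2, for all 9192 targets with a mean of 10 CPM or above (top, targets per bin, values beyond the axis counted in the end bins) and for the Notch genes (bottom). Dashed lines mark 2-fold; Notch3 alone lies past one of them, at -1.05, and Hes1 and Hey1 lie together at 0.45 and 0.44.

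A two-sided exact binomial test was also run on the recovered reads, with Benjamini-Hochberg adjustment over all 23930 targets. It compares these 2 libraries and not conditions, and covers counting error only. It called 7 of the 10 genes, 3 toward library 1 and 4 toward library 2, beside 69.5% of the targets with a mean of 10 CPM or above (32.5% and 37.0% in these directions). Higher in library 2 were Notch2 (adjusted p = 1.52e-60, exact), Notch3 (2.03e-58), Jag2 (1.50e-04) and Notch4 (0.0144). Higher in library 1 were Hes1 (adjusted p = 1.45e-04, exact), Hey1 (1.78e-04) and Notch1 (0.0178). Dll4 was 1.30-fold higher in library 1 (interval 1.01 to 1.65, adjusted p = 0.0966, exact), and Jag1 (adjusted p = 0.947, exact) and Dll1 (1.00) were not called. For Jag1 the interval of the fold, library 1 over library 2, ran from 0.868 to 1.09, and for Dll1 from 0.755 to 1.40.

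Markers of several cell types also differed between the libraries, and in bulk tissue fewer cells of a type and less RNA per cell cannot be told apart. Over all targets, 55.0% reached 1 CPM in both libraries. Of those with a mean of 1 CPM or above, 18.7% were past 2-fold (11.2% toward library 2). The marker counts in this and the next paragraph stand beside these shares. Of 8 mural markers (pericytes and smooth muscle), all reached 1 CPM in both libraries and none was at 0. Their sum was 601 CPM in library 1 against 753 in library 2, with a median difference of -0.28, beside -1.05 for Notch3. The highest was Pdgfrb at 181 and 234 CPM, and 1 of the 8, the pericyte gene Rgs5, was past 2-fold toward library 2, at 45.6 and 117 CPM. Mcam went the other way, at 166 and 89.0 CPM (difference 0.90), and Abcc9 (0.08) and Myh11 (0.00) were close to 0. The 10 endothelial markers, with Pecam1 the highest, were all detected and summed to 832 and 611 CPM with a median difference of 0.38, beside 0.35 for Dll4, 0.29 for Notch1 and -0.35 for Notch4. Of 5 arterial endothelial markers used here, 3 reached 1 CPM in both libraries. All 5 summed to 181 and 309 CPM, most of it from Unc5b, with no common direction. Unc5b (difference -0.91) and Efnb2 (-0.35) were higher in library 2. Bmx (0.19), Gja4 (0.72) and Sox17 (0.35) were higher in library 1, at low means of 1.76, 0.656 and 0.208 CPM. No endothelial or arterial marker was at 0.

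Larger shifts were seen elsewhere. Skeletal muscle markers summed to 40254 CPM in library 1 and 12745 in library 2 (8 of 8 detected, median difference 1.75), and muscle progenitor markers to 182 and 107 CPM (5 of 5, 1.17). Among the progenitor markers, 3 were past 2-fold toward library 1. Megf10 (-1.05) was past it toward library 2, and Pax7 was at -0.18. Neutrophil markers summed to 1064 and 573 CPM (7 of 8, 1.11), with 6 past 2-fold toward library 1 and 1 toward library 2. Erythroid markers summed to 1484 and 1262 CPM (6 of 6, 0.64). Toward library 2, chondrocyte markers summed to 1549 and 4674 CPM (8 of 8, -1.30), neuron markers to 177 and 665 CPM (6 of 6, -1.34) and Schwann cell markers to 524 and 1304 CPM (6 of 6, -1.44). Osteoblast markers were mixed, with nearly equal sums of 166636 and 171917 CPM (8 of 8, -0.66). Of these, 4 were past 2-fold toward library 2, while Sparc (0.64) and Col1a2 (0.30) went the other way. Suture mesenchyme markers were mixed too, with sums of 710 and 720 CPM (8 of 8, -0.85). There 2 were past 2-fold toward library 2, while Twist1 (0.76) and Postn (0.43) went the other way. Olfactory neuron markers (4 of 6 detected, 94.8 and 501 CPM, -2.75) and tooth germ markers (4 of 5, 118 and 528 CPM, -2.05, Odam at 0 in library 1) belong to tissues outside the sutures. The part of these cell types in the differences of the Notch genes was not tested.

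**Figure D4:**
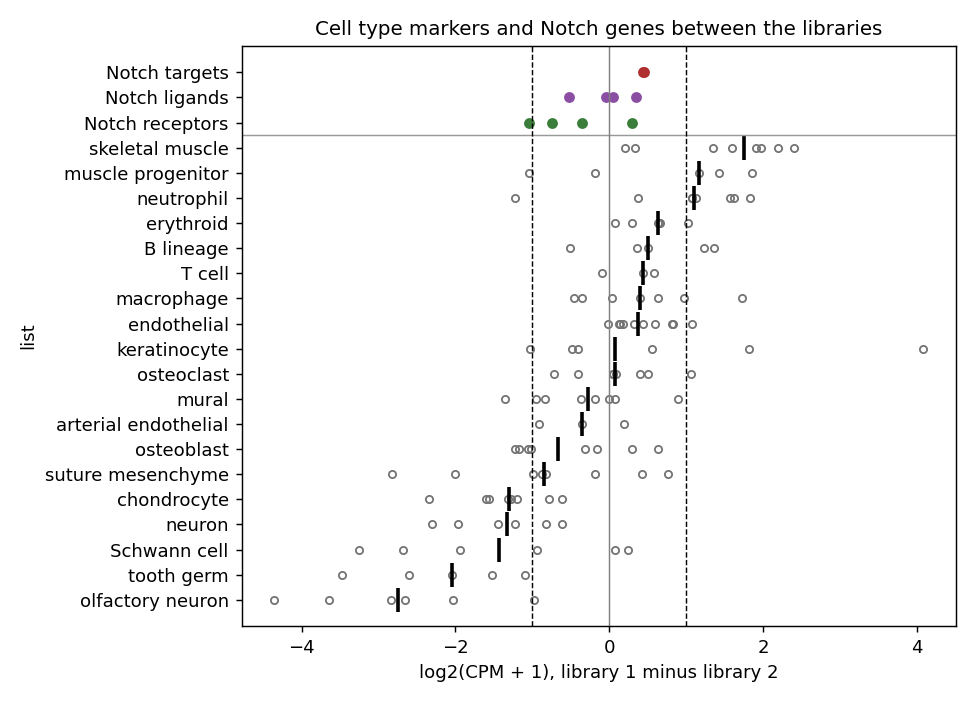
Difference between the libraries, log2(CPM + 1) of library 1 minus library 2, for markers of 19 cell type lists with a mean of 1 CPM or above (open circles, with the list's median as a bar) and for the Notch genes by role (filled circles). Dashed lines mark 2-fold; list medians run from -2.75 for olfactory neuron markers to 1.75 for skeletal muscle markers, and the Notch genes from -1.05 to 0.45.

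Around the receptors and ligands, most of the machinery that processes and relays the signal was present. Of 60 other pathway genes in 11 lists, 55 were measured. Of these, 49 were at 1 CPM or above in both libraries, beside 55.0% of all targets, and 38 at 10 CPM or above, beside 34.6%. The counts of detected genes in each list below stand beside the same 55.0%. Among the 50 with a mean of 1 CPM or above, 3 were past 2-fold, all toward library 2, beside 18.7% of all such targets (11.2% toward library 2). The exact binomial test called 27 of these 50, 11 toward library 1 and 16 toward library 2, beside 59.6% of all targets in the same range (26.8% and 32.9% in these directions). Their median difference was -0.07, the same as over all targets with a mean of 1 CPM or above.

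The enzymes that add sugars to the receptor were all 6 detected. Lfng, a Fringe glycosyltransferase that alters which ligands the receptor answers, was at 49.4 and 56.2 CPM, Poglut1, an O-glucosyltransferase, at 50.5 and 51.3 CPM, and Pofut1, an O-fucosyltransferase, at 31.3 and 28.8 CPM. None of the 6 was past 2-fold.

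Of the cleavage genes, 9 of 10 were measured and all 9 were detected. The gamma-secretase subunit gene Ncstn was at 169 and 149 CPM. Furin, the convertase that cuts the receptor on its way to the surface, was at 44.3 CPM in library 1 and 189 CPM in library 2, a difference of -2.07 and the largest among these pathway genes. Aph1b and Aph1c, close copies of each other in the mouse, averaged 16.6 and 3.46 CPM, and how reads were divided between them is not known.

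All 4 ubiquitin ligase genes for ligand endocytosis were detected. Mib2 was at 63.6 and 84.0 CPM, Mib1 at 54.6 and 52.1 CPM and Neurl1b at 23.8 and 22.9 CPM. Neurl1a was past 2-fold toward library 2, at 9.36 and 24.9 CPM (difference -1.32).

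In the nucleus, the coactivator genes Snw1 (89.0 and 102 CPM), Maml1 (74.2 and 80.3 CPM) and Ep300 (69.7 and 73.2 CPM) led a list in which 6 of 6 measured genes were detected and none was past 2-fold. Rbpj itself was not analysed here. Of the corepressors, 4 of 4 measured were detected, led by Ctbp1 (236 and 263 CPM) and Spen (59.5 and 61.9 CPM). The Groucho/TLE genes, which code for corepressors of Hes proteins, were all 5 detected, and Aes, a short relative that lacks most of the TLE domains, was at 1317 and 711 CPM, ahead of Tle3 (77.3 and 112 CPM) and Tle4 (41.5 and 27.0 CPM).

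Genes of receptor trafficking and turnover were all 8 detected, and none was past 2-fold. The ubiquitin ligase gene Nedd4 was at 137 and 74.4 CPM, the Deltex family gene Dtx3 at 69.4 CPM in both libraries, and Numbl, a relative of the Notch inhibitor Numb, at 50.3 and 85.4 CPM. Among the atypical ligands, Dlk1, a membrane protein of mesenchymal, muscle and fat progenitors that lacks the domain by which Notch is activated, was at 2030 and 1197 CPM, far above the activating ligands. Dner was at 27.0 and 36.5 CPM and Dlk2 at 0.706 and 2.15 CPM.

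Beside Hes1 and Hey1, 3 of 7 measured Hes and Hey family genes were detected. Heyl, a Notch target known from smooth muscle, was higher in reads than both at 83.5 and 57.5 CPM, with a difference of 0.53 beside 0.45 and 0.44. Hey2 was at 4.24 and 2.15 CPM (difference 0.73). Hes6, which is not a typical Notch target and opposes Hes1, was at 17.1 and 30.2 CPM (difference -0.78). Hes1, Hey1, Heyl and Hey2 thus had the higher value in library 1, none of them past 2-fold, and Hes6 in library 2. Hey2 rests on 24 and 34 reads. The median difference over all targets with a mean of 1 CPM or above was -0.07. Hes3 had 0 reads in both libraries, which allows levels of up to 0.530 CPM (library 1) and 0.190 CPM (library 2). Hes2, Hes7 and Helt had 0 reads in library 1, and were at 0.190, 0.0630 and 0.443 CPM in library 2. A further pair of genes induced by Notch were detected, Nrarp, a feedback inhibitor, at 22.8 and 27.9 CPM and Dtx1 at 2.65 and 3.04 CPM. Both had the higher value in library 2, with differences of -0.28 and -0.15.

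**Figure D5:**
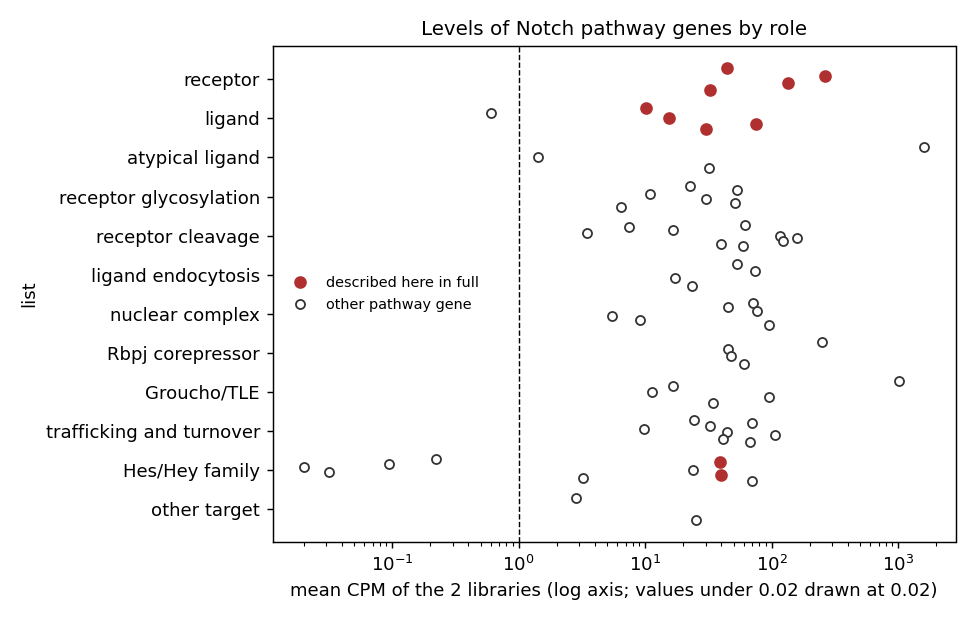
Mean CPM of the 2 libraries (log axis) for each measured gene of the Notch pathway by role, with the receptors, ligands and targets described in full as filled circles and the other genes as open circles. The dashed line marks 1 CPM; Dlk1 and Aes are the highest genes, and Hes2, Hes3, Hes7 and Helt are the lowest.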

How the data were processed

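The deposited table holds CPM, computed by the authors within each library, for 23930 amplicon targets. Per the labels' protocols, libraries were made with the Ion AmpliSeq mouse transcriptome panel; the submitters' processing notes name build mm10. The aligner, counting tool and filters were not given in the sources used here. Every value was a whole multiple of 1 read (100% within 0.01 of a read), at 0.177 CPM per read in library 1 and 0.0633 in library 2, so reads were recovered. Without molecular identifiers, all intervals and limits reflect counting error alone. Dates in place of 27 symbols were restored from target names.

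Levels are given with SD over the 2 libraries. Differences used a pseudocount of 1 CPM, which understates changes of low genes, and a 2-fold threshold with no test. The limit for a count of 0 is 3 reads. The binomial test (scipy 1.17.1) was an alternative, as were TMM (edgeR 4.0.16) and DESeq2 1.42.0 scaling, a pseudocount of 0.1 or 5 CPM, other thresholds, thinning of library 2 and each library alone. The scripts were tested on simulated reads. Coordinates come from GENCODE M21 and promoters from RefSeq, GRCm38.p6.

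The members and lists were chosen with earlier results of these data known. Named genes were all members, the 3 highest of each other pathway list, those past 2-fold or at 0, and the highest marker of a cell type list where one is described. A few genes under this rule enter the counts but are not reported here. Rgs5, Mcam, Abcc9, Myh11, Unc5b, Efnb2, Bmx, Gja4, Sox17, Sparc, Col1a2, Twist1, Megf10, Pax7, Aph1b and Aph1c were named after their values were seen. With 2 libraries a gene has a single difference, so genes of like pattern were not sought. Aph1a, Rbpj, Cir1, Hdac1 and Hes5 were not analysed here.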

Additional observations from a re-analysis of the deposited data

How the results depend on the processing

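All 10 Notch genes stayed above the detection limit under the 5 alternatives tried. Since each was above 10 CPM in both libraries, the single-library, 3-read and 10 CPM settings could not have changed this. None of the 60 recomputed log2 differences of single genes moved by more than its counting interval. A change of scaling or library total shifts all genes by about the same small amount. A changed pseudocount matters little above 10 CPM. Those settings could hardly have moved the values, so the count of 60 says little about robustness. TMM and DESeq2 scaling shifted the libraries against each other by 0.03 and 0.04 on the log2 scale. The count of differing genes rests on its threshold: Notch3 was the gene past 2-fold, 2 genes were past 1.5-fold and 7 were called by the binomial test. For the other pathway genes the count of 3 of 50 past 2-fold became 15 at 1.5-fold and 27 in the binomial test. It became 4 and 2 with a pseudocount of 0.1 and 5 CPM. Over all targets the share past 1.5-fold was 38.6%, known only for those with a mean of 10 CPM or above. In the binomial test it was 59.6% of those with a mean of 1 CPM or above, so these counts do not set the genes apart. The share of all targets past 2-fold was 18.7% with a mean of 1 CPM or above, 11.8% with no filter and 15.2% at 10 CPM or more. Taking the library total without the 10 highest targets raised the median level of the Notch genes from 39.7 to 52.6 CPM and that of 8 of them by more than 1 SD, since a smaller total raises every value. With a single library that median was 36.4 to 46.0 CPM, the Notch2 share of receptor reads 54.3 to 56.0% and the Jag1 share of ligand reads 56.0 to 58.5%. No paired analysis was possible because both libraries belong to 1 group. The lowest gene, Dll1, rests on 59 reads in library 1, which limits its precision most.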
